A study of Mus musculus with 20 samples.

Results

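The Hox genes were described in 20 single pairs of XY mouse gonads of embryonic day 11.5, as read on 2-colour Agilent arrays. The members were the gene probes whose name in the files is Hoxa, Hoxb, Hoxc or Hoxd with a number from 1 to 13, and the probe with the highest mean Cy5 signal stood for each gene. This gave 38 Hox genes of 27670 genes or names on the array, with 11 in the HoxA cluster, 10 in HoxB, 8 in HoxC and 9 in HoxD. Hoxc11 had no probe under this rule and was not analysed here. The gonad pairs came from 4 genotypes, with 5 pairs each: the inbred strains C57BL/6J and 129S1/SvImJ and their reciprocal crosses, (B6x129S1)F1 and (129S1xB6)F1. All embryos were XY, had 17 to 21 tail somites, and no treatment is named. The gonads had been cut away from the mesonephroi. Each array held the gonad RNA in Cy5 and the same reference pool in Cy3. The pool, from a Sox9-ECFP(C57BL/6J) x CD-1 cross, mixed 2 kinds of tissue. It held gonads (4 XY pairs and 3 XX pairs) together with whole embryos, of which 4 were XY and 2 were XX. The samples are separate gonad pairs from several litters. Every value below is log2 of Cy5 over Cy3, so that 0 is the level of the pool and 1 is 2-fold above it, unless a difference between groups is named.

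Hox genes encode homeodomain transcription factors that lie side by side in clusters. In the embryo, genes with low numbers are active up to the hindbrain, and genes with higher numbers are active only in more caudal parts of the trunk, in the limbs and in the urogenital system. Members with the same number in different clusters are close relatives (paralogs) and often share functions. The gonad arises in the trunk, on the surface of the mesonephros.

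Because close paralogs share letters, the probes were first compared with each other. All 49 probes of the 38 genes have 60 bases. Of the probes, 4 share a run of at least 12 bases with the probe of another member. The probes for Hoxc12 and Hoxd10 are shown as examples, with the shared bases, which lie in the homeobox, in capitals.
Hoxc12: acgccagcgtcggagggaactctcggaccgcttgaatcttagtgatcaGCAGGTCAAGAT
Hoxd10: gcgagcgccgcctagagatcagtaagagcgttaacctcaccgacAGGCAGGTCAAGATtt
These probes read a conserved part of the transcript, and binding of RNA from other Hox genes to them was not tested.

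The tissue label was checked against marker genes. Of 8 markers of the gonad primordium, 6 were called higher in the gonads than in the pool, among them Wt1 at 4.31, Tcf21 at 4.03 and Lhx9 at 3.1. The other two, Cbx2 and Cited2, lay at -0.86 and -0.39. Germ cell genes were higher for 6 of 8 markers. Neural tube markers were lower for 7 of 8 and limb and body wall markers for 6 of 8. The other 2 limb and body wall markers lay above the pool. Somite and muscle markers were called lower for only 3 of the 7 tested, with a median of -0.63. Over all genes tested, 5.58% were called higher and 6.08% lower. Markers of the nephric duct and mesonephros had a median of -0.095 and 1 of the 9 tested was called, Lhx1 at -1.08, and Sim1 was not well above background. Gene probes were well above background in Cy5 for 78.4% to 88.3% of spots per array, and the median log2 ratio per array was 0.045 to 0.122. In whole-tissue RNA, fewer cells of a type and less RNA per cell cannot be told apart.

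Against the pool, more Hox genes were called lower than higher in the gonad, and the higher ones lay in the middle of the HoxD cluster. Hoxd8, Hoxd9 and Hoxd10 were higher than the pool, and 13 members were lower, among them Hoxa2, Hoxd13, Hoxb2 and Hoxb5. Of the 38 members, 36 could be tested, and 16 were called at an adjusted p under 0.05 with a size of at least 2-fold, 3 higher and 13 lower. Of the 13, Hoxa11, Hoxb1 and Hoxd1 were above background in the gonads on only 8, 15 and 15 of 20 arrays. They were tested because the pool was above background. Their fold changes are given with each array set no lower than the dimmest detected signal, which is not a strict limit. Hoxb1 and Hoxd1 were not called with normexp and loess. By the same rule 11.7% of 23672 genes were called, 5.58% higher and 6.08% lower. The median of the tested Hox genes was -0.53, beside 0.11 over all genes tested. Gonad RNA carried Cy5 on every array, so a dye effect of a probe and a difference from the pool cannot be told apart, and the spread of the pool itself is not in the test.

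**Figure D1:**
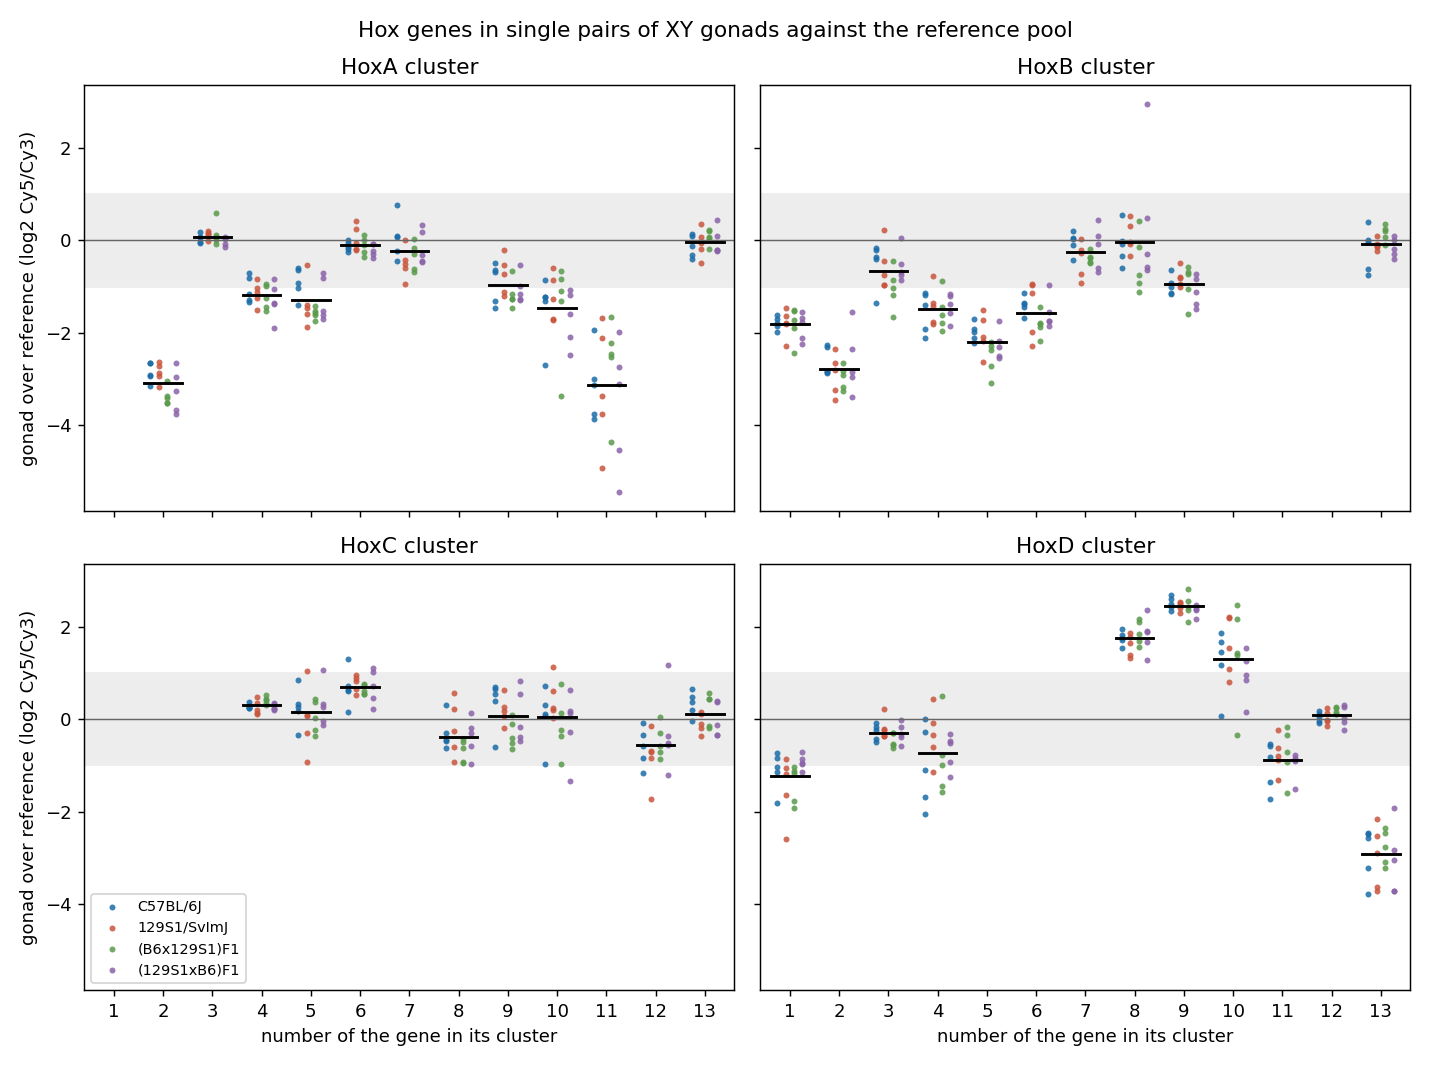
Log2 Cy5/Cy3 (vertical axis) of Hox genes by number in the cluster (horizontal axis), in 1 panel per cluster. Points are the 20 arrays coloured by genotype, black bars are means over the 4 groups, and the grey band marks less than 2-fold from the pool. Hoxd8, Hoxd9 and Hoxd10 stand above the band with means of 1.76, 2.44 and 1.29, while HoxC means stay within it.

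Hoxd9, a HoxD gene that acts in the trunk and limbs, was the highest member. Its values were 2.68, 2.49, 2.59, 2.43 and 2.33 in C57BL/6J, and 2.47, 2.40, 2.53, 2.51 and 2.30 in 129S1/SvImJ. They were 2.35, 2.11, 2.81, 2.42 and 2.55 in (B6x129S1)F1, and 2.43, 2.37, 2.16, 2.35 and 2.47 in (129S1xB6)F1. The 4 groups overlapped throughout and every array lay more than 4-fold above the pool. The mean was 2.44 ± 0.0385 (SE), a 5.42-fold excess (limma, adjusted p = 4e-21, 20 arrays), and its second probe gave 2.87. Hoxd9 ranked first among the 38 members on 18 of 20 arrays.

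Hoxd8, the neighbour on the low-numbered side of Hoxd9, ranged from 1.27 to 2.35 with a median of 1.77. In the crosses it read 2.1, 1.69, 2.16, 1.83 and 1.56 in (B6x129S1)F1, and 1.66, 1.27, 1.91, 1.89 and 2.35 in (129S1xB6)F1. In the strains it read 1.54, 1.76, 1.81, 1.72 and 1.94 in C57BL/6J, and 1.33, 1.64, 1.39, 1.86 and 1.78 in 129S1/SvImJ. The group means lay between 1.6 and 1.87 with SDs of 0.147 to 0.394 (n = 5), and the groups overlapped. It was among the 3 highest members on all 20 arrays, as was Hoxd9. The mean of 1.76 ± 0.0586 (SE) is 3.39-fold above the pool (limma, adjusted p = 4.7e-16).

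Hoxd10, which patterns the caudal trunk and hindlimb, was also above the pool but spread far more widely. It read 1.67, 1.45, 0.075, 1.17 and 1.87 in C57BL/6J, and 2.20, 1.53, 1.08, 2.19 and 0.80 in 129S1/SvImJ. It read 2.47, 1.43, 2.16, -0.35 and 1.38 in (B6x129S1)F1, and 1.53, 0.96, 1.25, 0.15 and 0.84 in (129S1xB6)F1. One array of (B6x129S1)F1 lay below the pool and 19 of 20 lay above it, and all 4 groups overlapped. The mean was 1.29 ± 0.158 (SE), 2.45-fold (limma, adjusted p = 3e-07).

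On the side of the higher numbers the excess ended at Hoxd10. Hoxd11, a gene of the limb and the metanephric kidney, was below the pool on all 20 arrays, from -1.72 to -0.17, with a mean of -0.88 ± 0.0948 (SE). The probe passed the background test in Cy5 on 16 arrays. Hoxd11 was not called, and its mean ran from -1 to -0.092 over the alternative processings, so the size of the step depends on the processing. Hoxd12 lay at 0.08 with a within-group SD of 0.151. Hoxd13, which acts in the digits and the genital bud, was far below the pool. It read -3.22, -2.56, -3.78, -2.45 and -2.49 in C57BL/6J, and -3.72, -2.15, -2.53, -3.62 and -2.90 in 129S1/SvImJ. It read -2.35, -2.76, -3.21, -3.08 and -2.45 in (B6x129S1)F1, and -1.92, -3.71, -2.82, -3.71 and -3.05 in (129S1xB6)F1. All arrays lay far under 0 and the groups overlapped. Its mean of -2.92 ± 0.126 (SE) is 7.59-fold under the pool (limma, adjusted p = 3.1e-14). On the other side of the peak, Hoxd4 lay at -0.73, Hoxd3 at -0.31 and Hoxd1 at -1.22, and of these Hoxd1 was called. With each array set no lower than the dimmest detected signal, Hoxd1 was 2.31-fold lower.

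The promoters of the HoxD genes at the peak and of Hoxd13 at the low end are printed to show the sequence beside this step. Promoters were supplied by RefSeq (build GRCm38.p6) for 22 of the 38 members, in 24 windows. Each line gives the 250 bases before the annotated start, on the plus strand of chromosome 2. Hoxd8 is chr2:74704365-74704614, Hoxd9 is chr2:74697513-74697762, Hoxd10 is chr2:74691641-74691890 and Hoxd13 is chr2:74667975-74668224. Capitals mark matches to 7 short motifs searched on both strands.
Hoxd8: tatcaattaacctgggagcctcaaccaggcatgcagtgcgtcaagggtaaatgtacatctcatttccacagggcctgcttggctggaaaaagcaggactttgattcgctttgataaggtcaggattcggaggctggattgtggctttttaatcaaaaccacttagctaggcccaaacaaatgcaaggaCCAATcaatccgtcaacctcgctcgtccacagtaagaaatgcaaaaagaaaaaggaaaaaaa
Hoxd9: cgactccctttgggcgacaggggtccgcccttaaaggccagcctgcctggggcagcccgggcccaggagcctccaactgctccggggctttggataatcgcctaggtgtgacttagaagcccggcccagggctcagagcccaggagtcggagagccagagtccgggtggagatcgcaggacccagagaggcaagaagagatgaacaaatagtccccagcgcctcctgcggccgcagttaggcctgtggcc
Hoxd10: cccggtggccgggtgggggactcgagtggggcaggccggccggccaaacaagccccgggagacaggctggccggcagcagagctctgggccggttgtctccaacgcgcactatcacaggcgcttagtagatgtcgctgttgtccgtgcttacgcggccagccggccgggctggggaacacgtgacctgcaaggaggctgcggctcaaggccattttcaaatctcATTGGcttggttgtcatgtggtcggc
Hoxd13: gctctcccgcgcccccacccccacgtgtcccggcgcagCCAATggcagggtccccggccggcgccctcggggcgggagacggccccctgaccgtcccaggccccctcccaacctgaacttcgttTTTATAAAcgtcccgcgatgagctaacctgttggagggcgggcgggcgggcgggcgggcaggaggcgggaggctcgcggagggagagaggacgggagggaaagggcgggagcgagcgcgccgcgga
The motif CCAAT was found in 14 of the 24 Hox windows and in 33.8% of 32851 windows of all genes, and TATAAA in 4 of 24 and 12.4% of all. TTTATNG (CDX and posterior HOX proteins) was in 2 and 9.81%, TGATTNAT (HOX with PBX) in 2 and 2.82%, and TGACAG (MEIS) in 2 and 15.9%. CAAGGTCA, bound by NR5A1, was in 0 of 24 and 1.33% of all. AGATAA, for factors of the Gata family, was in 0 of 24 and 9.99% of all. In the windows shown, TATAAA was matched on both strands at overlapping places in Hoxd13, and the Hoxd9 window held none of the 7. Base composition differed along the cluster, with 44.4% G or C in the window of Hoxd8, 65.2% in Hoxd9, 65.6% in Hoxd10 and 74.4% in Hoxd13. These matches describe the letters of these windows only.

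The members with numbers 1 to 4, which pattern the hindbrain and neck, were the lowest class. Of 12 such genes 7 were called lower and 0 higher, with a median of -1.20. Hoxa2, which patterns the hindbrain and the branchial arches, ranged from -3.75 to -2.62 with a median of -2.99, below the pool on all 20 arrays. Its mean was -3.08 ± 0.0629 (SE), 8.48-fold under the pool (limma, adjusted p = 1.9e-19). Hoxb2, its paralog, read -2.87, -2.82, -2.31, -2.27 and -2.84 in C57BL/6J, and -2.81, -3.45, -2.34, -3.23 and -2.66 in 129S1/SvImJ. In the crosses it read -3.16, -2.90, -2.83, -3.26 and -2.65 in (B6x129S1)F1, and -2.84, -3.39, -2.35, -1.55 and -2.96 in (129S1xB6)F1. Array M3 of the last group was the highest, and the groups overlapped. The mean was -2.77 ± 0.0955 (SE; limma, adjusted p = 8e-16), but a second probe made to another transcript record gave -0.37. Hoxb1, a hindbrain gene, ranged from -2.23 to -1.54 in (129S1xB6)F1, -2.44 to -1.51 in (B6x129S1)F1, -2.28 to -1.47 in 129S1/SvImJ and -1.98 to -1.61 in C57BL/6J. Its mean was -1.81 and 15 arrays were above background. With every array set no lower than the dimmest detected signal, it was 3.46-fold lower than the pool. Hoxb4 and Hoxa4 lay at -1.48 and -1.19. Hoxc4 was an exception at 0.30. It ranged from 0.20 to 0.35 in (129S1xB6)F1, 0.30 to 0.52 in (B6x129S1)F1, 0.12 to 0.47 in 129S1/SvImJ and 0.23 to 0.37 in C57BL/6J, above the pool on all 20 arrays but under 2-fold. Hoxa3 lay at 0.071.

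Members with numbers 5 to 8, genes of the neck and thorax, were split between clusters. Of 11 genes, 3 were called lower, 1 was called higher (Hoxd8) and the median was -0.23. Hoxb5 read -1.91, -2.21, -1.71, -1.98 and -2.11 in C57BL/6J, and -1.51, -2.62, -1.72, -2.18 and -2.08 in 129S1/SvImJ. In the crosses it read -2.19, -2.72, -3.08, -2.38 and -2.28 in (B6x129S1)F1, and -2.30, -2.51, -2.17, -1.75 and -2.55 in (129S1xB6)F1. All arrays lay below the pool and the groups overlapped. The mean was -2.20 ± 0.0719 (SE), 4.59-fold under the pool (limma, adjusted p = 3.5e-16). Hoxa5, which acts in lung and neck, averaged -1.29 ± 0.0812. Hoxb6 averaged -1.56, while its second probe gave 0.32, so that the direction for Hoxb6 depends on the probe. Hoxc6 was the highest member outside HoxD at 0.70 ± 0.0623 (SE), with all 20 arrays above 0 and overlapping groups. It ranged from 0.22 to 1.10 in (129S1xB6)F1, 0.55 to 0.76 in (B6x129S1)F1, 0.52 to 0.95 in 129S1/SvImJ and 0.16 to 1.29 in C57BL/6J. Hoxc5 averaged 0.15 and lay on both sides of the pool, from -0.93 to 1.07. Hoxa7, Hoxb7 and Hoxb8 lay within 0.25 of the pool.

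Members with numbers 9 to 13, relatives of the fly gene Abdominal-B that pattern the lumbar to tail region and the genital tract, ranged from the highest member to some of the lowest. Among 15 genes, 13 were tested, 2 were called higher (Hoxd9 and Hoxd10) and 3 lower (Hoxa10, Hoxa11 and Hoxd13), with a median of -0.076 over all 15. Hoxa10, needed for normal uterus and for descent of the testis, was below the pool on all 20 arrays. It read -1.30, -0.86, -2.69, -1.22 and -1.22 in C57BL/6J, and -0.60, -1.26, -0.86, -1.71 and -1.72 in 129S1/SvImJ. It read -0.67, -1.30, -0.84, -3.37 and -1.09 in (B6x129S1)F1, and -1.07, -1.60, -1.18, -2.09 and -2.47 in (129S1xB6)F1. One array in C57BL/6J and 1 in (B6x129S1)F1 lay far below the rest, and the groups overlapped. The mean was -1.46 ± 0.156 (SE), 2.74-fold under the pool (limma, adjusted p = 4.8e-08).

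Hoxa11, a gene of the uterus, kidney and limb, had a measured mean of -3.13 ± 0.235 (SE), which has no rank among the lowest members because its probe was well above background in the gonads on only 8 of 20 arrays. It read -3.85, -3.12, -3.76, -1.94 and -3 in C57BL/6J, and -1.68, -3.37, -2.1, -4.93 and -3.76 in 129S1/SvImJ. It read -1.66, -2.46, -2.22, -4.35 and -2.52 in (B6x129S1)F1, and -3.11, -2.74, -1.99, -4.52 and -5.44 in (129S1xB6)F1. Every array lay below the pool, and the lowest readings have no order because the gonad signal there was not above background. On the 8 arrays above background it ranged from -3.11 to -1.66, with a mean of -2.14. With every array set no lower than the dimmest detected signal, it was 6.67-fold lower than the pool, which is not a lower limit. Among paralogs with number 9, Hoxa9 and Hoxb9 were below the pool at -0.97 and -0.95 and Hoxc9 was at 0.07, beside 2.44 for Hoxd9. Among those with number 10, Hoxa10 was at -1.46, Hoxc10 at 0.052 and Hoxd10 at 1.29. A second probe of Hoxb9 gave -2.25. Hoxb13 and Hoxc12 were too dim to test against the pool.

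By cluster, no HoxC member was called, and 6 of its 8 genes lay above 0, with a median of 0.093. HoxB had all 10 genes below 0, with a median of -1.22, and HoxA had 10 of 11 below 0, with a median of -1.19. Across the genes of a cluster, Spearman's rho between the mean ratio and the gene number was 0.70 in HoxB, 0.027 in HoxA, -0.62 in HoxC and -0.067 in HoxD. Over all 38 it was 0.29. These are descriptions across genes, which share arrays and the pool. They use the brightest probe of each gene and include Hoxb13, which was too dim to test. In HoxB the second probes of Hoxb2, Hoxb6 and Hoxb9 gave -0.37, 0.32 and -2.25. The rho by cluster was not taken with second probes. Of the 11 genes with a second probe, the second probe was above background in Cy5 on 20 arrays for 8, and on only 0, 1 and 2 arrays for Hoxa13, Hoxc10 and Hoxd13. Among the 8, the probes lay more than 0.6 apart for Hoxa3, Hoxb2, Hoxb6, Hoxb9 and Hoxd3, and they had opposite signs for Hoxa3, Hoxb6, Hoxb8 and Hoxd3. With no background subtraction, 5 members passed the size limit instead of 16 (Hoxa2, Hoxb2, Hoxb5, Hoxb6 and Hoxd9), and all 16 kept their direction.

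Between genotypes, no Hox gene passed the threshold in any comparison. In C57BL/6J minus 129S1/SvImJ, 0 of the 36 tested members were called by limma at an adjusted p under 0.05, beside 5.52% of 23847 genes (3.22% higher and 2.3% lower in C57BL/6J), and 2 had an unadjusted p under 0.05, beside 14.8% of all genes. The lowest adjusted p of a member was 0.21, and the median difference of the members was 0.0023, beside 0.014 over all genes tested. In (B6x129S1)F1 minus (129S1xB6)F1, 0 members were called beside 0.00839% of genes (0.00419% higher and 0.00419% lower), and 0 had an unadjusted p under 0.05 beside 3.67%. In the mean of the F1 groups minus C57BL/6J, 0 were called beside 2.1% (1.16% higher and 0.939% lower), and 3 had an unadjusted p under 0.05 beside 12%. The mean of the F1 groups minus 129S1/SvImJ gave 0 called beside 1.62% (1.01% higher and 0.616% lower), with 2 unadjusted beside 12.3%. The mean of the F1 groups minus mid-parent (the mean of the strains) gave 0 beside 0.31% (0.302% higher and 0.00839% lower), with 2 unadjusted beside 9.18%. The test for any difference among the 4 groups called 0 members beside 3.75% of genes, with 1 unadjusted beside 13.2%. These comparisons share arrays. No member had groups that did not overlap, beside 5.25% of genes in the strain comparison and 0.671% in that of the crosses. For the F1 groups the share was 1.35% against C57BL/6J, 1.14% against 129S1/SvImJ and 0.00839% against mid-parent. Summed over the 8 germ cell markers, the Cy5 signal ran from 9600 to 14500 in C57BL/6J and from 13200 to 22500 in 129S1/SvImJ. It ran from 18000 to 29500 in (B6x129S1)F1 and from 19400 to 30200 in (129S1xB6)F1. Between the strains, 2 of 8 gonad primordium, 0 of 8 germ cell and 1 of 9 nephric duct and mesonephros markers were called. The part of such differences in the Hox comparisons was not tested.

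**Figure D2:**
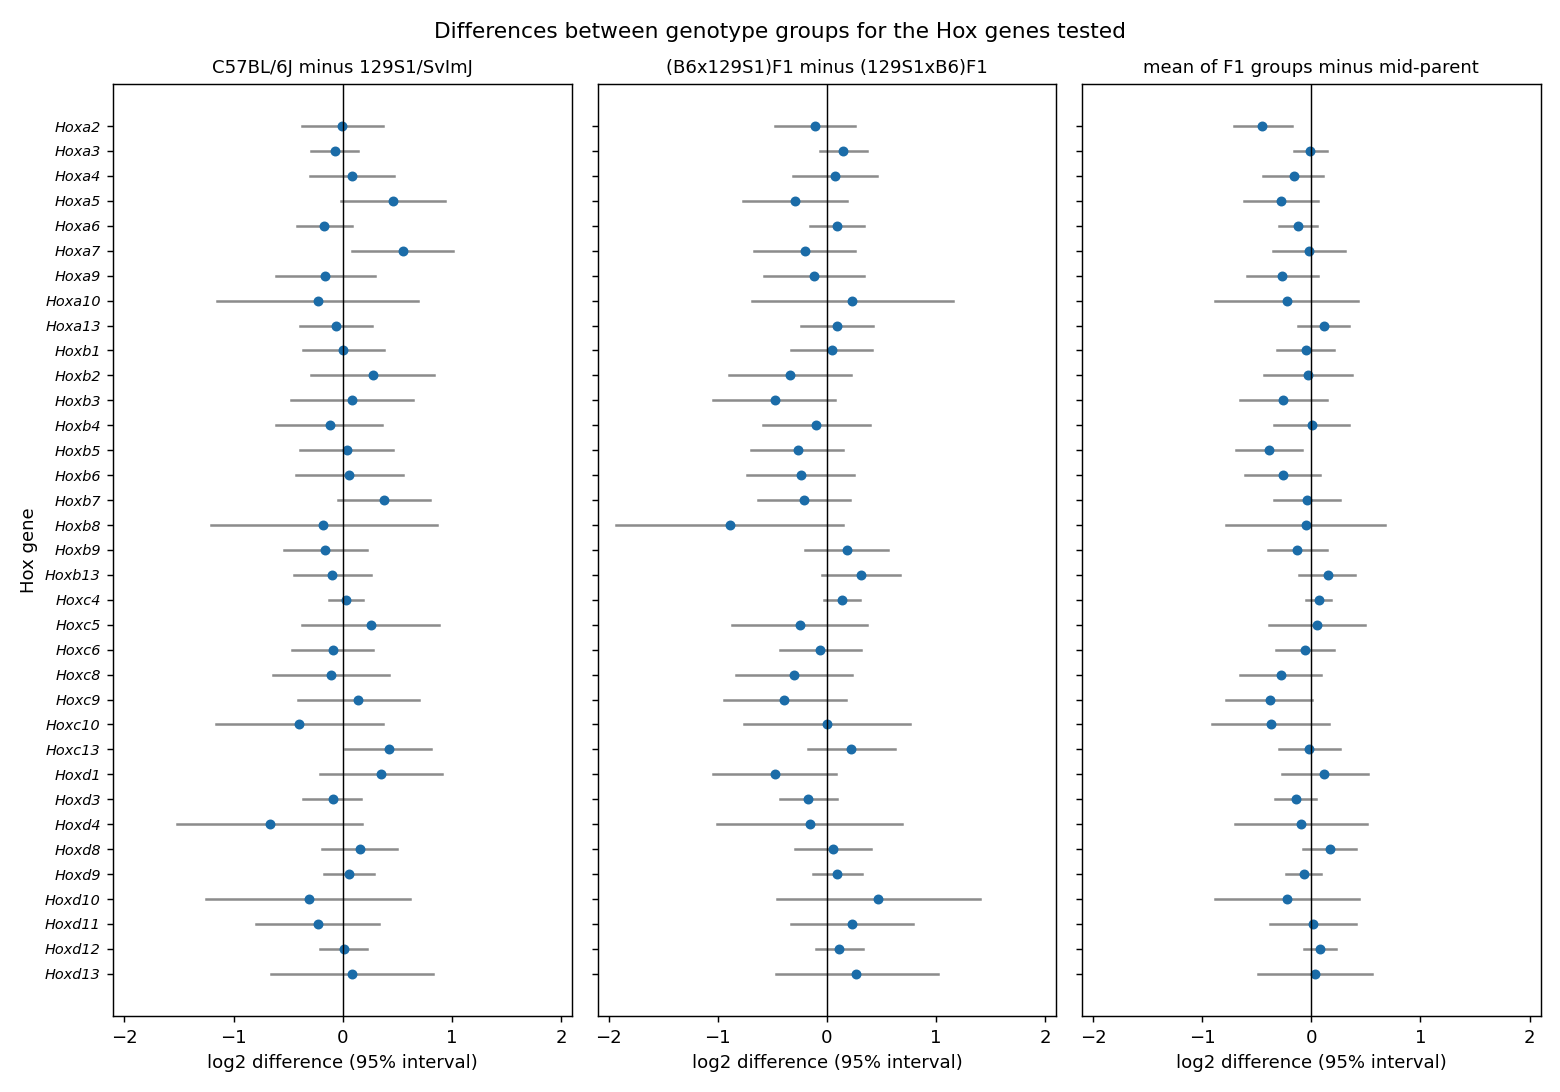
Log2 differences (horizontal axis) of Hox genes tested (vertical axis) for 3 comparisons, with points for estimates and bars for 95% intervals. Most intervals include 0, and they are widest for Hoxb8, Hoxd10, Hoxa10 and Hoxd4.

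The intervals show what differences these arrays leave possible. For the strains, the 95% interval of 30 of 36 members lay within 2-fold in either direction, and of 17 within 1.5-fold. For the reciprocal crosses the counts were 29 and 15. Hoxd9 differed by 0.061 between the strains with an interval from -0.17 to 0.29, and Hoxd8 by 0.16 from -0.19 to 0.50. For Hoxd10 the strain difference was -0.31 with an interval from -1.25 to 0.62, which does not exclude a value 2-fold lower in C57BL/6J.

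Hoxd4, a gene of the neck vertebrae, had the largest strain difference. It read -1.09, 0.01, -1.68, -0.28 and -2.06 in C57BL/6J, and -0.60, -0.35, -0.073, -1.15 and 0.44 in 129S1/SvImJ. The 2 strains overlapped over most of their range. The difference was -0.67 ± 0.406 (SE), with an interval from -1.52 to 0.18 (limma, adjusted p = 0.50). Within slides it was -0.52 on slide 1, 0.36 on slide 2, -1.98 on slide 3 and -0.72 on slide 4.

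Hoxa7, a thoracic patterning gene, had the smallest p between the strains. It read 0.07, 0.10, -0.44, 0.76 and -0.22 in C57BL/6J, and -0.43, -0.59, 0.0077, -0.95 and -0.52 in 129S1/SvImJ. C57BL/6J was higher on average, with overlap. The difference was 0.55 ± 0.221 (SE; limma, unadjusted p = 0.022, adjusted p = 0.21), and it was 0.51, 0.69, -0.23 and 1.28 within slides 1 to 4. Hoxc13, the other member with an unadjusted p under 0.05, was above background on 3 of 5 arrays in each strain, so its difference is not given.

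Hoxa2 had the smallest p of all members in the comparisons with the F1 groups. It read -2.94, -2.90, -2.66, -2.66 and -3.14 in C57BL/6J, and -2.62, -3.18, -2.94, -2.86 and -2.71 in 129S1/SvImJ. It read -3.36, -3.03, -3.52, -3.51 and -3.40 in (B6x129S1)F1, and -3.25, -3.66, -2.65, -2.95 and -3.75 in (129S1xB6)F1. The values of (B6x129S1)F1 lay low in the range and those of (129S1xB6)F1 covered nearly all of it. The mean of the F1 groups minus mid-parent was -0.45 ± 0.126 (SE; limma, unadjusted p = 0.0021, adjusted p = 0.21). Within slides 2 to 4 it was 0.017, -0.31 and -0.62, and with slide as a block -0.30 ± 0.165 (limma, adjusted p = 0.61). Over all alternatives it ran from -0.62 to 0.034, and the upper value came from an alternative processing of all arrays. Hoxb5 gave -0.39 ± 0.144 in the same comparison (adjusted p = 0.42). The largest sizes against single strains were -0.51 ± 0.199 for Hoxa5 against C57BL/6J (adjusted p = 0.27) and -0.57 ± 0.315 for Hoxc10 against 129S1/SvImJ (adjusted p = 0.47).

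For the reciprocal crosses the largest size was that of Hoxb8, at -0.89 ± 0.496 (SE; limma, adjusted p = 1). It rested on 1 array of (129S1xB6)F1, M3, which read 2.94 while the other 4 of that group lay between -0.63 and 0.49. The second Hoxb8 probe read 0.28 on the same array. Without that array the difference was -0.25 ± 0.303.

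Several members varied widely between gonad pairs of the same genotype. The within-group SD of the tested Hox genes had a median of 0.355, beside 0.239 over all genes tested, and 12 of 36 lay above the 90th percentile of all genes. Hoxd10 had an SD of 0.769 (98.8th percentile), Hoxa10 of 0.761 (98.7th), Hoxd4 of 0.699 (98.1st) and Hoxc10 of 0.625 (97.0th), and all of these were above background on 20 arrays. Hoxb8 had 0.855 through the array named above. At the other end, Hoxc4 had 0.095 (2.04th percentile), Hoxd12 had 0.151 and Hoxd9 had 0.164 (23.0th percentile), although Hoxd9 and Hoxd10 are neighbours. Signal levels differed as well: the probes of Hoxc10 and Hoxd11 had mean processed Cy5 signals of 216 and 89.4, beside 5130 for Hoxd9 and 1810 for Hoxd10.

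**Figure D3:**
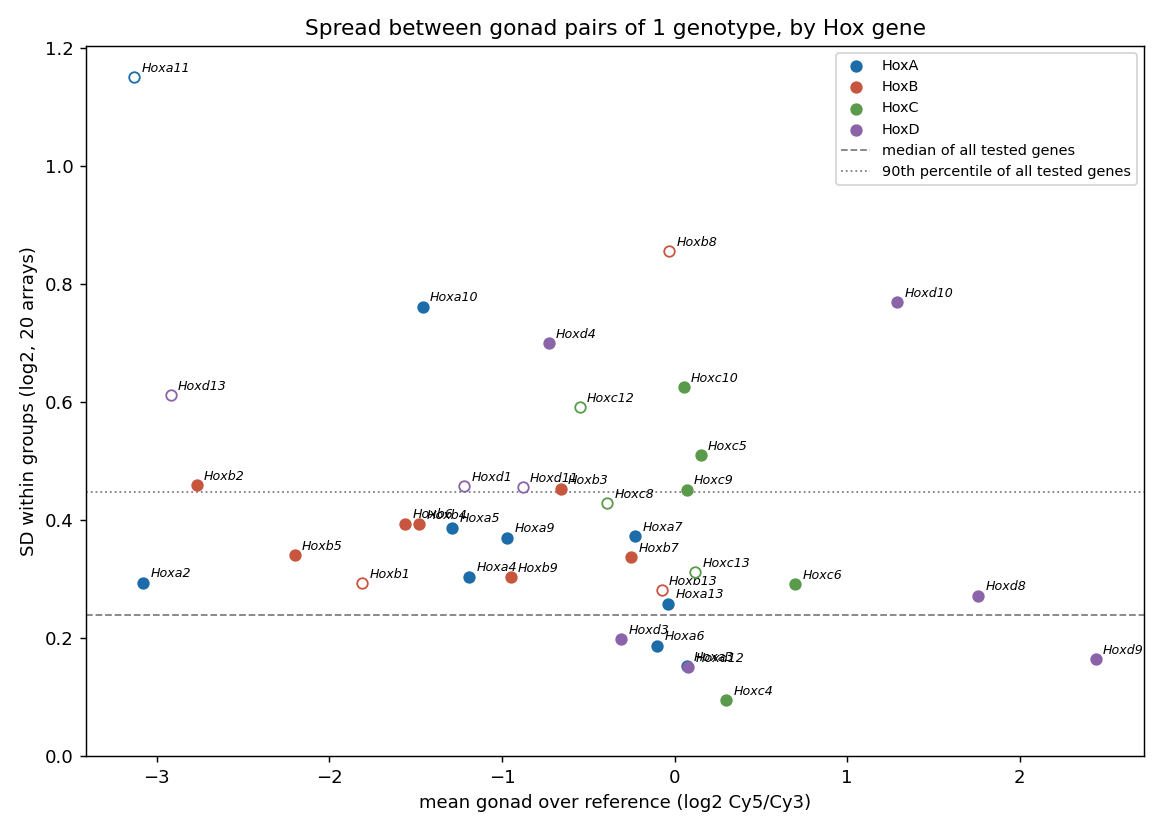
SD within genotype groups (vertical axis, log2) against the mean log2 Cy5/Cy3 (horizontal axis) for Hox genes, coloured by cluster. Open circles are probes not well above background in Cy5 on all 20 arrays, the dashed line is the median of all tested genes (0.239) and the dotted line their 90th percentile (0.447). Hoxd10 and Hoxd9 lie far apart in spread, at 0.769 and 0.164.

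**Figure D4:**
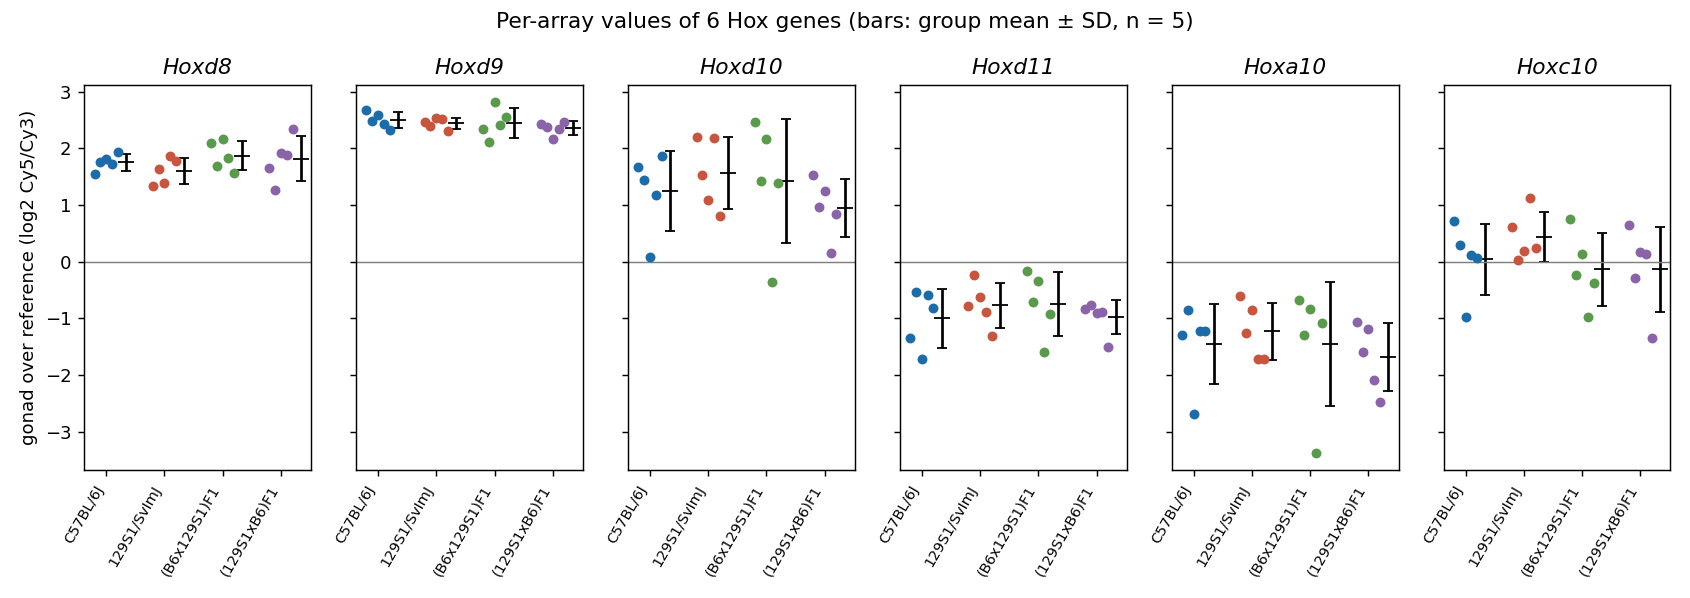
Log2 Cy5/Cy3 (vertical axis) of 6 Hox genes on each array, by genotype (horizontal axis), with bars for the group mean ± SD (n = 5). The groups overlap for every gene shown, and low arrays recur in Hoxd10, Hoxa10 and Hoxc10. Hoxd11 was above background in the gonads on 16 of 20 arrays.

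Some arrays were the lowest of their group for several members. Array H3 of C57BL/6J was the lowest of its group for Hoxa10 (-2.69), Hoxc10 (-0.98) and Hoxd10 (0.075). Array E1 of (B6x129S1)F1 was the lowest of its group for the same genes, at -3.37, -0.98 and -0.35. Of the 28 members above background on all arrays, each of these arrays was the lowest of its group for 10, which for both included Hoxa6, Hoxa9, Hoxc4 and Hoxc9. Array M6 of (129S1xB6)F1 was the lowest for 11, among them Hoxa10 and Hoxc10 but not Hoxd10. M6 also had the lowest share of spots above background in Cy5 of all arrays (78.4%). Arrays H1 of C57BL/6J and D4 of 129S1/SvImJ came close, each the lowest for 9. The same count over all genes was not taken. H3 was on slide 1, which held strain samples only, and E1 on slide 5, which held F1 samples only. On H3 and E1 Hoxd9 read 2.59 and 2.42, within the range of the other arrays. Hoxd11 was not above background in the gonads on H3, E1 or M6, so its readings there are not ranked and its correlations rest partly on them. As deviations from the group mean over 20 arrays, Hoxa10 and Hoxd10 had Pearson's r = 0.81 (permutation p = 0.0018, adjusted 0.11) and Spearman's rho = 0.71 (permutation p = 0.0022, adjusted 0.22). The r was 0.57 without the 2 arrays farthest out for Hoxa10 and 0.83 with slide removed. For Hoxa10 and Hoxd11 r was 0.80 (permutation p = 0.00031, adjusted 0.079) and rho 0.63 (permutation p = 0.0062, adjusted 0.22), with r = 0.62 without 2 arrays and 0.78 with slide removed. For Hoxc10 and Hoxd10 r was 0.71 (permutation p = 0.0015, adjusted 0.11) and rho 0.72 (permutation p = 0.00091, adjusted 0.15), with r = 0.76 without 2 arrays and 0.67 with slide removed.

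**Figure D5:**
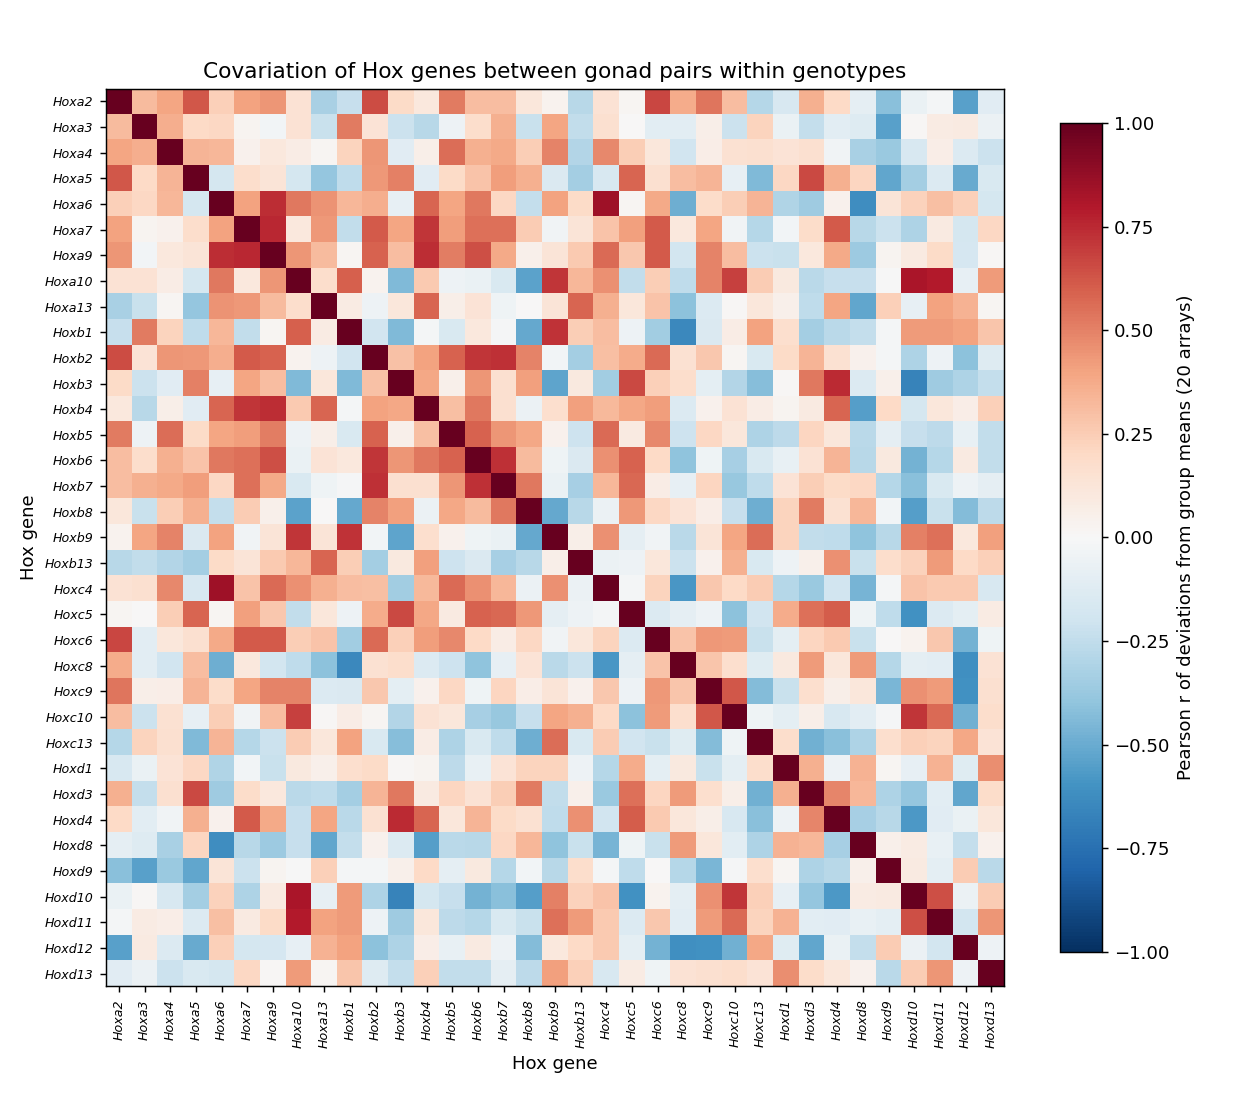
Pearson's r between the deviations of Hox genes from their group means over 20 arrays (both axes list the genes by cluster and number; colour gives r from -1 to 1). Hoxa10, Hoxc10, Hoxd10 and Hoxd11 have r between 0.57 and 0.81 with each other, and 0 of 630 pairs passed adjustment. Other pairs lie in this range too, such as Hoxa7 and Hoxa9 at 0.757 and Hoxa10 and Hoxb9 at 0.717.

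These relations did not pass correction for the number of pairs. Over all 630 pairs of tested members, permuting arrays within groups gave 0 pairs at an adjusted p under 0.05, with a lowest adjusted p of 0.079 for r and 0.15 for rho. An unadjusted p under 0.05 was found for 96 pairs (15.2%), of which 71 were positive. As a description, among 23776 other genes the one most like Hoxa10 was Hoxd10, with Hoxd11 at rank 4, and the gene most like Hoxd11 was Hoxa10. For Hoxa10, 1.12% of genes had an r above 0.6. The gene most like Hoxd10 was Ctsw at 0.90, with Hoxa10 at rank 2, and the genes most like Hoxc10 were Lrrc8b, Rap1gds1 and Selenom, with Hoxd10 at rank 25. Outside this set, Hoxa6 and Hoxc4 had r = 0.85 (permutation p = 0.00038, adjusted 0.079) and rho = 0.82 (permutation p = 0.00094, adjusted 0.15). Their r was 0.75 without 2 arrays and 0.82 with slide removed. Other pairs had an r of like size, among them Hoxa7 and Hoxa9 (0.757), Hoxb3 and Hoxd4 (0.743) and Hoxa9 and Hoxb4 (0.738). Hoxa10 had r = 0.717 with Hoxb9, beside 0.682 with Hoxc10, so a high r was not particular to numbers 10 and 11.

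Marker lists moved with some members within groups. Of 360 relations between a member and the mean of a list, 4 passed on r (1.11%, adjusted over the 360) and 0 on rho, whose lowest adjusted p was 0.065. A list value is a plain mean over its genes, so genes of wide spread weigh most in it. Hoxb6 ran with the nephric duct and mesonephros markers (r = 0.72, permutation p = 0.00024, adjusted 0.034; rho = 0.76, permutation p = 0.00071, adjusted 0.085; r = 0.68 without 2 arrays and 0.71 with slide removed). In that list Cdh16 had by far the largest SE against the pool, 0.292, beside 0.105 for Gata3. The second Hoxb6 probe, at 0.32 against the pool, was not compared with the lists. For Hoxb2, Hoxb7 and Hoxb5 the same r was 0.66, 0.63 and 0.56 (permutation p = 0.014, 0.023 and 0.022, each adjusted to 0.27), with rho of 0.54, 0.57 and 0.52 (permutation p = 0.04, 0.037 and 0.04, each adjusted to 0.35). Without 2 arrays these r were 0.43, 0.47 and 0.57, and with slide removed 0.67, 0.66 and 0.67. For Hoxb8 r was 0.57 (permutation p = 0.061, adjusted 0.35) and rho 0.37 (permutation p = 0.17, adjusted 0.58), with r = 0.40 without 2 arrays and 0.55 with slide removed. Of these HoxB members only Hoxb6 passed. The remaining HoxB members are not listed here, so these values do not describe the cluster. Summed over the 10 markers, the Cy5 signal ran from 7030 to 14500 in (129S1xB6)F1 and from 5040 to 7800 in (B6x129S1)F1. In the strains it ran from 6180 to 10100 (129S1/SvImJ) and from 6180 to 7980 (C57BL/6J). The part of these cells in the Hox values was not tested.

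The other relations that passed on r were few. Hoxd8 ran against the limb and body wall markers (r = -0.80, permutation p = 0.00031, adjusted 0.034; rho = -0.78, permutation p = 0.00057, adjusted 0.085; r = -0.75 without 2 arrays and -0.69 with slide removed). Hoxb3 ran with the TALE cofactors (r = 0.89, permutation p = 7e-05, adjusted 0.025; rho = 0.86, permutation p = 0.00018, adjusted 0.065; r = 0.82 without 2 arrays and 0.90 with slide removed). Hoxb9 ran with the neural tube markers (r = 0.65, permutation p = 0.00038, adjusted 0.034; rho = 0.65, permutation p = 0.0025, adjusted 0.20; r = 0.63 without 2 arrays and 0.44 with slide removed). The summed Cy5 signal of the limb list ran from 8840 to 17900 over all arrays and that of the neural tube list from 8310 to 13200. For Hoxa10 the gonad markers had r = -0.60 (permutation p = 0.012, adjusted 0.27) and rho = -0.41 (permutation p = 0.094, adjusted 0.48), with r = -0.27 without 2 arrays and -0.70 with slide removed. The share of probes above background on an array was not called against any member, with a lowest adjusted p of 0.84 for rho and 0.95 for r over 36 relations by permutation. For Hoxa10 that share had r = 0.42 (permutation p = 0.057) and rho = 0.42 (permutation p = 0.078), with r = 0.65 without 2 arrays and 0.00032 with slide removed.

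The partners and regulators of Hox proteins were compared with the pool from lists. TALE homeodomain proteins bind DNA together with HOX proteins. Of 9 such genes, Meis1 was called higher at 1.47 and Pbx4 and Meis3 lower at -1.77 and -1.26. Over all genes tested, 5.58% were called higher and 6.08% lower. The median of the 9 was -0.33, beside 0.11 over all genes tested. In the strain comparison Pbx4 was called, at 0.58 ± 0.139 (SE; limma, adjusted p = 0.014), higher in C57BL/6J, and 0 of the other 8 were. Of all genes tested, 5.52% were called in that comparison, 3.22% of them higher in C57BL/6J as a share of all.

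Chromatin regulators of the Hox clusters, the Polycomb and Trithorax genes, were tested as 15 genes. The Polycomb gene Bmi1 at -1.24 and the histone demethylase gene Kdm6b at -1.13 were called lower, 0 were called higher, and the median was -0.51. This is beside 6.08% of all genes called lower and 5.58% called higher, and beside a median of 0.11. Among 10 genes of the Cdx, ParaHox and posterior patterning list, 9 were tested and Evx2, the neighbour of Hoxd13, was called higher at 1.72, while its relative Evx1 beside HoxA lay at -0.97. Hoxd13 between Evx2 and the HoxD peak was low, as given above. Of 15 genes that flank the clusters, Atp5g3 near HoxD was called higher at 1.15, 0 were called lower, and the median was 0.19, so that the counts lay near those shares. In the strain comparison 0 genes of these 3 lists were called by limma, beside 5.52% of all genes tested.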

How the data were processed

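Gonad RNA (Cy5) and a reference pool (Cy3) were read on 20 arrays. The deposited scanner files hold spot intensity, per the file headers background-subtracted, detrended and LOWESS dye-normalised by Agilent Feature Extraction 9.1.3.1. The authors also deposited a table of log2 ratios (r with the values used here 0.935 to 0.960 per array, across probes; its centring is not stated), used as an alternative. Here log2 of processed Cy5 over Cy3 was averaged over the spots of a probe and fitted with limma 3.58.1 (R 4.3.3), 4 groups on 20 arrays, with 16 residual degrees of freedom and Benjamini-Hochberg adjustment over all genes tested. Genes were tested between groups if well above background in Cy5 on 4 of 5 arrays of a group, and against the pool if so in either colour on 16 of 20 arrays. Gene symbols and neighbours came from the GRCm38.p6 gene table. Members described in full were the 6 highest and lowest against the pool and the largest difference in each comparison; others were named for their paralogs, probes or spread after their values were seen. The members and lists were chosen with earlier results of these data known. Covariation was added after the spread was seen, with 100000 permutations within groups. The labels say that samples came from several litters but name none, and letters in the sample names (a possible litter) were tried as a block. Each letter occurred within 1 genotype only, so differences between letters and between genotypes cannot be fully told apart. Arrays that share a letter had a consensus correlation of 0.143, and the main fits treat all samples as independent. Arrays lay on 5 slides: slides 2 to 4 held all groups, slide 1 only the strains and slide 5 only the F1 groups. P-values measure the spread between these samples. The number of arrays limits the precision. The fits were tested on simulated data. Some members' and list genes' values, and some probe sequences, are not reported here, though counts and medians include them.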

Additional observations from a re-analysis of the deposited data

Results flagged for a closer look

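In groups of 5 arrays, 6 of 152 combinations of a Hox gene and a genotype (3.95%) had 1 array far from the other 4; chance gives about 1 in 20. Array H3 of C57BL/6J was low for Hoxa10 (-2.69) and for Hoxc9 (-0.61). Array E1 of (B6x129S1)F1 was low for Hoxa10 (-3.37), and array M6 of (129S1xB6)F1 was low for Hoxd11 (-1.51), a reading not above background in the gonads. Array K2 of C57BL/6J was low for Hoxb3 (-1.35), and array G3 of 129S1/SvImJ was high for Hoxd3 (0.21). Without H3 or E1 the members called against the pool were 16 each time, as with all arrays.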

How the results depend on the processing

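No Hox gene was called between groups under any alternative or with any array left out. Against the pool, 16 Hox genes were called, 16 to 17 with an array left out, 11 with normexp and loess, 12 when Cy5 had to be above background on all arrays, 5 with no background subtraction, and 15 to 18 otherwise. Hoxa3, Hoxb8, Hoxc9, Hoxc10, Hoxd3 and Hoxd12, not called, changed sign under some alternative. The median of numbers 1 to 4 moved from -1.20 to -0.72 with normexp and loess. Counts over all genes moved too. For gonad over reference, 2761 became 1719 with normexp and loess and 863 with no background subtraction. For the strains 1316 became 870 with the letter as a random block, and for any difference 894 became 535. For the F1 groups minus C57BL/6J 500 became 293 with the letter, and minus 129S1/SvImJ 387 became 238 with slide as a block. For mid-parent 74 became 17 with no background subtraction, 28 with slide and 35 with the letter. For the reciprocal crosses 2 became 0 with normexp and loess and 1 with the strict filter. With an array left out, counts were 1029 to 1332 for the strains, 2 to 5 for the crosses, 348 to 579 and 247 to 448 for the F1 groups minus C57BL/6J and 129S1/SvImJ, 42 to 109 for mid-parent, 672 to 948 for any difference and 2727 to 2784 against the pool. The count for the crosses was 5 without array E1, that for 129S1/SvImJ was 247 without A3, and that for mid-parent was 42, 44 and 48 without C4, H2 and M6. Hoxa9 joined the members called against the pool without M3, F2 or A3. The causes were not tested. With normexp and loess, 0 pairs of members passed and r of Hoxa10 and Hoxd10 was 0.59. The replicate names are not shared between groups, so samples could not be paired by name. Slide was used as a block instead.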
